A study of Mus musculus with 6 samples.

Results

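The 10 genes described here make up the route by which a mouse cell shows peptides on MHC class I, and they were taken from the deposited count table by symbol. They are H2-K1, H2-D1, H2-M3, H2-T23, B2m, Tap1, Tap2, Tapbp, Erap1 and Nlrc5, and all 10 had a row among the 11922 genes of the table. Splenic CD8+ T cells of C57BL6/J mice, selected with beads against CD8α, were activated with anti-CD3/anti-CD28 beads for 3 days and then expanded for a further 4 days. Vehicle cultures received water. AOA cultures received 0.25 mM aminoxyacetic acid, an inhibitor of enzymes that need PLP, the active form of vitamin B6. Every culture held recombinant human IL-2 at 100 units per ml, and no genetic change was made. The cells of 3 donor mice each gave 1 vehicle and 1 AOA culture, so there were 3 libraries per group, collected on day 7 and numbered by mouse.

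MHC class I molecules consist of a polymorphic heavy chain and the invariant light chain β2-microglobulin, and they hold a short peptide that CD8+ T cells can read. Proteasomes cut proteins into peptides, the TAP transporter moves these into the endoplasmic reticulum, the aminopeptidase ERAP1 trims them, and tapasin bridges TAP to the empty heavy chain. In T cells, which carry abundant class I themselves, the transactivator NLRC5 drives many of these genes from a conserved promoter module, which also binds RFX, CREB/ATF and NF-Y factors. Interferons raise the same genes, in part through IRF1.

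Promoter sequences of H2-K1, H2-D1, H2-M3, B2m and Tap1 are shown because each carries CCAAT and TGACG, motifs of NF-Y and CREB/ATF factors. In H2-K1, H2-D1, H2-M3 and B2m a CCAAT on the opposite strand follows TGACG. In Tap1 CCAAT comes first, at -222 from the start site, and TGACG lies at -86. Of the 5 genes, H2-D1 and Tap1 were called lower with AOA. H2-K1 was not called, but its log2 estimate (-0.48) was near that of H2-D1 (-0.51). Each run is the 250 bases before a start site in the RefSeq promoter table of build GRCm38.p6, written in the direction of transcription. Capitals mark every match to GAAANNGAA (a pair of interferon response half-sites), TTCNNNGAA (an interferon gamma activated site), GGGNNTTCC (an NF-κB site), CCAAT (the NF-Y box) or TGACG (a CREB/ATF half-site) on either strand, so that a CCAAT box on the other strand reads ATTGG. The positions were chr17:34000334-34000583 (minus strand) for H2-K1, chr17:35262844-35263093 (plus strand) for H2-D1, chr17:37269984-37270233 (plus strand) for H2-M3, chr2:122147437-122147686 (plus strand) for B2m and chr17:34187306-34187555 (plus strand) for Tap1.
H2-K1: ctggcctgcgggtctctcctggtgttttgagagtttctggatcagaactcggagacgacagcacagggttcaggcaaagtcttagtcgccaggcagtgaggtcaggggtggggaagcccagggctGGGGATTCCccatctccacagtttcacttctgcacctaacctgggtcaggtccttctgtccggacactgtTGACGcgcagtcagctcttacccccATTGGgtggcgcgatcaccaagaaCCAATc
H2-D1: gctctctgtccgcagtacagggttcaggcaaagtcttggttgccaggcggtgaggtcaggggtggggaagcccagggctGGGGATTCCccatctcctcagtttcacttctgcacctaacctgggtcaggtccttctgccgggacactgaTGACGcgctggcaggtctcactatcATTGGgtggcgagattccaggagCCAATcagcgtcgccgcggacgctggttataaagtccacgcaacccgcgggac
H2-M3: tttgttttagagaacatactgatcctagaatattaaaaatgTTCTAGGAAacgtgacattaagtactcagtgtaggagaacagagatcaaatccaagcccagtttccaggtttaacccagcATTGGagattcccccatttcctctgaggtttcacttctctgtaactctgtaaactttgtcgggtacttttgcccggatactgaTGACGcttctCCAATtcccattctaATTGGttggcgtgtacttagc
B2m: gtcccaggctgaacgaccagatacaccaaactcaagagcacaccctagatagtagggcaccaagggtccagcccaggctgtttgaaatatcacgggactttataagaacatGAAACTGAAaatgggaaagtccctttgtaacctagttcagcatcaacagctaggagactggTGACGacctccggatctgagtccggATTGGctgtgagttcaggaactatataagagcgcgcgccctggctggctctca
Tap1: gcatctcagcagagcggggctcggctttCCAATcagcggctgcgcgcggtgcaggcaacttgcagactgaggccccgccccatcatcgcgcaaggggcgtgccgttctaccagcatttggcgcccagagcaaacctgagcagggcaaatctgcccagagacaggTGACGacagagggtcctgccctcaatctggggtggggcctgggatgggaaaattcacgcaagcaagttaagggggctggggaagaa

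A promoter entry of 300 bases, which adds the 50 bases after the start, was found for 8 of the 10 genes. Tap2 and Nlrc5 had no entry. CCAAT was present in 7 of these 8 promoters, in all except that of Erap1, and in 37.4% of the 32851 promoters of the table. TGACG was present in 5 of the 8, those printed above, and in 20.8% of all promoters. GGGNNTTCC was found in H2-K1 and H2-D1 and in 5.82% of all promoters, and the 2 genes shared an identical run of 47 bases around it. GAAANNGAA was found in B2m, H2-T23 and Erap1 and in 8.56% of all promoters, and its pair of matches in Erap1 overlapped each other. TTCNNNGAA was found in H2-M3 and in 8.30% of all promoters. Psmb9, an immunoproteasome subunit gene on the opposite strand, starts within the printed Tap1 run in the RefSeq table, while in GENCODE vM21 its start lies 211 bases inside Tap1. These matches are letters in a window and were not measured as bound sites. A promoter without a match can still hold another form of such a site.

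Total counts were between 12881962 and 18934869 in the vehicle libraries and between 18696114 and 21997078 in the AOA libraries. Levels are in CPM, the counts of a gene scaled to the total of its library after TMM normalisation in edgeR, and differences are log2 fold changes of AOA relative to vehicle. A gene was called changed at an adjusted p under 0.05 in the quasi-likelihood test of edgeR (Benjamini-Hochberg) over the 11759 genes that passed its low-count filter. Vehicle replicate 2 stood apart on the second principal component of log2 CPM (10.8% of the variance), at 44.2 against -21.9 and -19.4 in the other vehicle libraries, so values without it are given where they differ in call. The sample was bulk RNA, in which fewer cells of a type and less RNA per cell cannot be told apart.

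Of the 10 class I presentation genes, 4 were called lower with AOA (H2-D1, H2-T23, Tap1 and Nlrc5), 1 was called higher (Erap1) and 5 were not called. Over all genes tested, 26.8% were called lower and 26.2% higher, 53.0% in all. The median log2 fold change was -0.41 over the 10 genes and -0.02 over all genes. Levels of the 3 AOA libraries lay below all vehicle libraries for 6 of the 10 genes and above them for 2, against 31.1% and 31.0% of all genes, 62.1% in all. The called changes were moderate, from 0.552 times the vehicle level for Tap1 to 1.59 times for Erap1, and none of the 10 genes reached a log2 fold change of 1 in either direction.

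**Figure D1:**
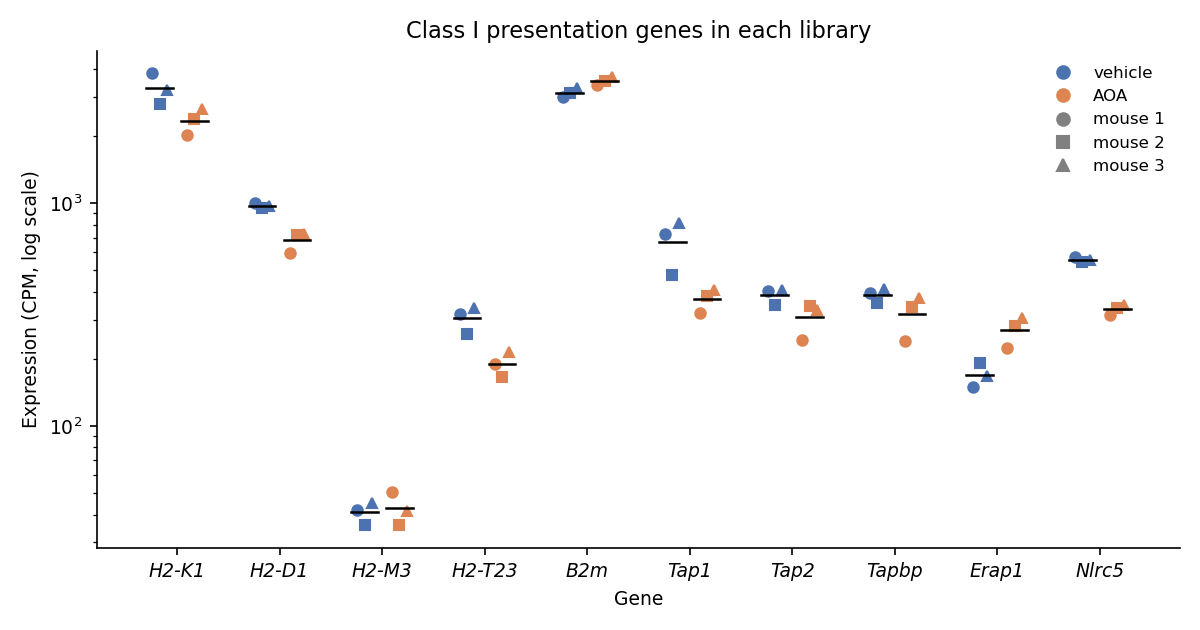
CPM (log axis) of each of the 10 genes in the 3 vehicle and 3 AOA libraries, with a marker shape for each mouse and a bar at each group mean. The AOA points of Nlrc5, H2-T23, Tap1 and H2-D1 lie below all their vehicle points, those of Erap1 and B2m lie above, and those of H2-M3 overlap.

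Per kilobase of gene length, as the table gives it, B2m had the highest level with vehicle, at 3636 ± 181 CPM per kb (SD, n = 3), followed by H2-K1 at 1968 ± 317 and H2-D1 at 941 ± 25.4. H2-T23 at 232 ± 31.5 and Tap1 at 227 ± 60.02 CPM per kb did not differ beyond their spread, and Tap2 at 155 ± 13.1 and Tapbp at 140 ± 10.44 lay close together. Nlrc5 followed at 80.0 ± 2.30, Erap1 at 42.2 ± 5.47 and H2-M3 at 28.8 ± 3.36 CPM per kb. With AOA the 3 leading genes kept their order, with B2m at 4113 ± 178, H2-K1 at 1409 ± 186 and H2-D1 at 659 ± 72.0 CPM per kb. Erap1 (67.1 ± 10.32) then stood above Nlrc5 (48.0 ± 2.71), the reverse of their order with vehicle, and H2-T23 (144 ± 18.2), Tap1 (125 ± 15.3), Tap2 (123 ± 22.7) and Tapbp (116 ± 25.3) overlapped.

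The classical heavy chains H2-K1 and H2-D1, which present peptides to most CD8+ T cells, were both lower in all AOA libraries. H2-K1 (Entrez gene 14972, chromosome 17 from 33996017 to 34000347 on the minus strand of GRCm38) had 3816, 2768 and 3218 CPM in vehicle replicates 1, 2 and 3 and 2012, 2377 and 2628 CPM in AOA replicates 1, 2 and 3. The groups did not overlap, but the vehicle spread was wide and mouse 1 differed most. The estimate of -0.48 on the log2 scale (95% interval -0.92 to -0.05, standard error 0.19) did not pass the threshold, with an adjusted p of 0.0605 by edgeR. H2-K1 was called by DESeq2 (-0.47, adjusted p = 0.0151) and by edgeR without vehicle replicate 2 (-0.55, adjusted p = 0.0364), in 3 of 13 alternative fits in all, and without vehicle replicate 1 the value was -0.33 (adjusted p = 0.249).

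H2-D1 (Entrez gene 14964, chromosome 17 from 35262730 to 35267499 on the plus strand) had 1000, 948 and 969 CPM with vehicle and 596, 722 and 728 CPM with AOA. The 3 vehicle libraries lay close together and every AOA library was lower. By edgeR it fell, with a log2 fold change of -0.51 and an adjusted p of 0.0189 (standard error 0.15), and the difference in the 3 mice was -0.75, -0.39 and -0.41. The call was lost without vehicle replicate 1 (-0.47, adjusted p = 0.0781 by edgeR) or vehicle replicate 3 (-0.49, adjusted p = 0.0751). Reads that also match a similar heavy chain have no unique position. Of the 75-base windows of the GENCODE transcripts of H2-D1, 5.40% also occur in another gene, most often H2-Q1, against 3.10% for H2-K1. Windows shared with H2-L or H2-Q9, which have rows but no GENCODE model, could not be counted.

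H2-L, a close relative of H2-D1, has a row in the table although C57BL/6 mice are known to lack a separate L gene, and no gene model of that name was found in the GENCODE vM21 or RefSeq annotation of GRCm38. Its level was 1225 ± 112 CPM with vehicle and 827 ± 68.1 CPM with AOA (SD, n = 3), a log2 fold change of -0.57 (adjusted p = 0.0138 by edgeR). How the presence of both rows affects their counts was not tested. The H2-L row was above the H2-D1 row in both groups, and levels of H2-D1 given here use its own row only. With the counts of both rows summed, edgeR gave -0.54 on the log2 scale with a standard error of 0.16 and an adjusted p of 0.0192, close to that of H2-D1 alone.

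Of the nonclassical heavy chains H2-T23 and H2-M3, the first fell and the second was not called. H2-T23 encodes Qa-1, which presents leader peptides of other class I chains to NKG2 receptors, and lies on chromosome 17 from 36029773 to 36032855. Its level was 318, 259 and 339 CPM with vehicle and 190, 165 and 213 CPM with AOA. All AOA libraries lay below all vehicle libraries, and the fall was alike in the 3 mice, at -0.74, -0.65 and -0.67. edgeR gave -0.69 on the log2 scale with an adjusted p of 0.00584 (standard error 0.16), and H2-T23 was called in all 13 alternative fits.

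H2-M3 (chromosome 17 from 37270220 to 37274484) presents peptides that begin with N-formyl methionine, as those of bacteria and mitochondria do. It had 41.9, 35.8 and 45.3 CPM with vehicle and 50.2, 35.9 and 41.7 CPM with AOA. The groups overlapped, although AOA replicate 1 lay above every vehicle library. Its log2 fold change of 0.06 had a 95% interval from -0.31 to 0.42 (adjusted p = 0.795 by edgeR), so a change of either sign within that range cannot be told from none. The ratio of H2-T23 to H2-M3 counts, added after the values had been seen, fell from 7.43 to 4.46, and it was lower with AOA in each of the 3 mice (exact permutation p = 0.1, the smallest that 3 against 3 libraries can give).

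B2m, the light chain of every class I molecule, is encoded apart from the heavy chains on chromosome 2 (122147686 to 122153083). Its level was 2976, 3099 and 3284 CPM with vehicle and 3387, 3509 and 3690 CPM with AOA. Every AOA library was above every vehicle library, and the difference was nearly the same in the 3 mice, at 0.19, 0.18 and 0.17. It did not pass the test across all genes, where edgeR gave 0.18 on the log2 scale (95% interval -0.19 to 0.54, adjusted p = 0.378). When the donor mouse entered the fit as a replicate block, the adjusted p was 0.447, and B2m was called in 0 of 13 alternative fits.

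Heavy and light chain RNA were therefore set against each other within each library, which does not depend on scaling between libraries. The log2 ratio of H2-K1 plus H2-D1 counts to B2m counts was 0.69, 0.26 and 0.35 with vehicle and -0.38, -0.18 and -0.14 with AOA. The groups did not overlap, and every AOA library was lower. The ratio fell from 1.35 to 0.852, or from 0.797 to 0.501 per kilobase, and the differences in the 3 mice were -1.07, -0.44 and -0.49. The exact permutation test (two-sided) gave p = 0.1, the smallest possible, and 0.117 after Benjamini-Hochberg adjustment over the 7 ratios computed, and the sign-flip test over mice gave its smallest p of 0.25. The ratio of H2-K1 to H2-D1 was 3.33 with vehicle and 3.42 with AOA (exact permutation p = 0.9), and its direction differed between mice. These ratios use the H2-D1 row without H2-L. With the H2-L counts added to H2-D1, the log2 ratio of H2-K1 to their sum changed by 0.07 (exact permutation p = 0.5). With all H2 heavy chain rows, H2-L included, the log2 ratio to B2m changed by -0.73 (exact permutation p = 0.1).

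**Figure D2:**
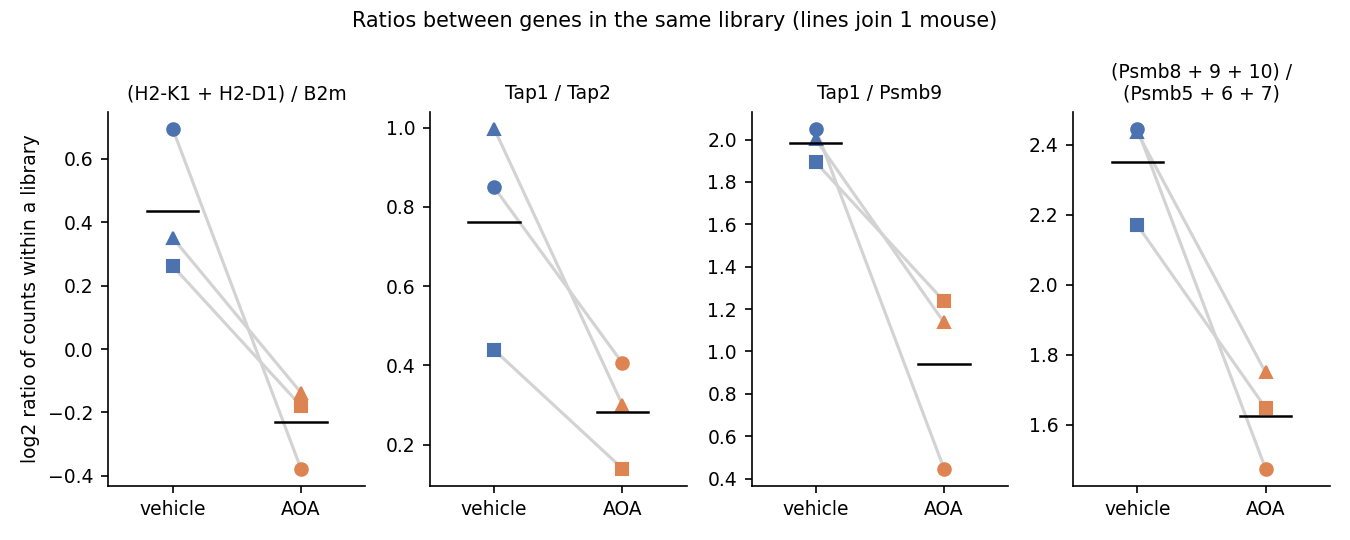
The log2 ratio of counts within each library (vertical axes, each with its own scale) for 4 gene pairs or groups, with lines joining the vehicle and AOA cultures of 1 mouse and bars at the group means. All 4 ratios were lower with AOA in each mouse, with mean differences of -0.67, -0.48, -1.04 and -0.73 from left to right.

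The TAP transporter is a dimer of TAP1 and TAP2, and of its 2 chains only Tap1 was called. Tap1 (chromosome 17 from 34187553 to 34197225) had 725, 473 and 814 CPM with vehicle and 320, 381 and 409 CPM with AOA. The groups did not overlap, although vehicle replicate 2 lay well below the other vehicle libraries. In edgeR its change was -0.86 on the log2 scale (95% interval -1.34 to -0.37, standard error 0.21, adjusted p = 0.00839), the lowest estimate among the 10 genes. The values without 1 library ran from -1.02 (without vehicle replicate 2) to -0.67 (without vehicle replicate 3), and all of these fits called it.

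Tap2 (chromosome 17 from 34203527 to 34216321) had 402, 349 and 408 CPM with vehicle and 242, 346 and 332 CPM with AOA. The groups were separated by a small margin only, between vehicle replicate 2 and AOA replicate 2, which came from the same mouse. The change of -0.33 on the log2 scale (95% interval -0.72 to 0.05, adjusted p = 0.129 by edgeR) was called in 0 of 13 alternative fits and was -0.19 without AOA replicate 1. The Tap1 to Tap2 ratio, added after the values had been seen, was 1.70 with vehicle and 1.22 with AOA and fell in all 3 mice, by 0.44, 0.30 and 0.70 on the log2 scale (exact permutation p = 0.1).

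Tapbp encodes tapasin and lies on chromosome 17 from 33915899 to 33929292. It had 395, 354 and 410 CPM with vehicle and 240, 342 and 373 CPM with AOA. The groups overlapped, because AOA replicate 3 lay above vehicle replicate 2, and AOA replicate 1 was well below the rest. Its estimate of -0.28 on the log2 scale was not called (95% interval -0.69 to 0.13, adjusted p = 0.226 by edgeR), and without AOA replicate 1 it was -0.11.

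Erap1, the aminopeptidase that trims peptides in the endoplasmic reticulum, was the gene of the 10 that rose. It lies on chromosome 13 from 74639568 to 74693201, and its level was 149, 192 and 167 CPM with vehicle and 224, 280 and 304 CPM with AOA. All AOA libraries were above all vehicle libraries, and each mouse showed a rise of 0.59, 0.54 and 0.87 in turn. edgeR gave 0.67 on the log2 scale (95% interval 0.30 to 1.04, standard error 0.16, adjusted p = 0.00764), and Erap1 was called in all 13 alternative fits. Lnpep, a related aminopeptidase that trims peptides in endosomes for cross-presentation, fell from 362 ± 30.6 to 198 ± 12.5 CPM (SD, n = 3), a log2 fold change of -0.87 (adjusted p = 0.000771 by edgeR). The ratio of Lnpep to Erap1 counts, added after the values had been seen, thus went from 2.15 to 0.740.

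Nlrc5, the class I transactivator, lies on chromosome 8 from 94434356 to 94527272. Its level was 573, 541 and 554 CPM with vehicle and 313, 338 and 350 CPM with AOA. The AOA libraries were far below the vehicle libraries compared with the spread within either group. With edgeR its log2 fold change was -0.74 (95% interval -1.04 to -0.43, standard error 0.14) at an adjusted p of 0.00175, the smallest adjusted p of the 10 genes, with differences of -0.87, -0.68 and -0.66 in the 3 mice. Over the 13 alternative fits it stayed between -0.77 and -0.69 and was called each time.

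**Figure D3:**
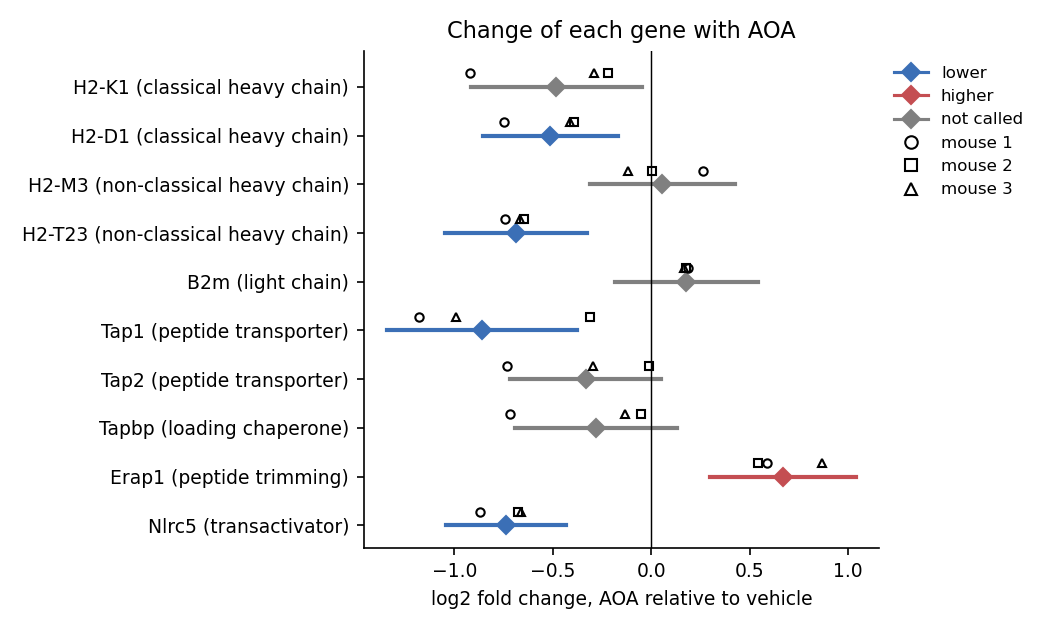
The log2 fold change (AOA relative to vehicle) of each of the 10 genes as a diamond with its 95% interval, coloured by the edgeR call, with open symbols for the difference in each mouse. Tap1, Nlrc5, H2-T23 and H2-D1 lie below 0 with intervals that exclude it, and so does H2-K1, which was not called. Erap1 lies above 0, and in mouse 1 the fall was the largest of the 3 mice for each gene that fell in every mouse.

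The direction was the same in all 3 mice for 9 of the 10 genes, 7 of them lower and 2 higher, and H2-M3 was mixed. For all 7 that were lower the fall was largest in mouse 1, whose AOA library had the highest total count of the series, 21997078. The part of library depth in this was not tested.

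Of 34 other class I heavy chain and class I-like genes listed, 15 had a row. GENCODE vM21 types 4 of these as pseudogenes, H2-K2 and H2-T-ps as unprocessed and H2-Q5 and H2-T10 as polymorphic ones. Of the 15, 9 were called lower with AOA, 0 higher and 6 were not called, against 26.8% lower and 26.2% higher over all genes. Their median log2 fold change was -0.69. Several had lower estimates than any of the 10 presentation genes, a difference that was not tested. The pseudogene H2-K2 fell from 31.1 ± 7.83 to 6.20 ± 0.603 CPM (SD, n = 3), a log2 fold change of -2.32 (adjusted p = 5.2e-05 by edgeR). H2-Q10, known as a secreted class I molecule, had a log2 fold change of -1.68, and that of H2-Q5 was -1.37. H2-Q4 fell from 477 ± 122 to 209 ± 24.04 CPM (-1.19, adjusted p = 0.00109 by edgeR). H2-Q6 was lower by edgeR as well (-0.96). H2-Q2, which encodes a further Q region chain, is counted among the 9 but passed the low-count filter only through its vehicle libraries. It stood at 1.67 ± 1.13 CPM with vehicle and 0.162 ± 0.113 with AOA, and its log2 fold change of -3.26 (adjusted p = 0.00345 by edgeR) rests on few counts and ran from -3.89 to -2.59 with 1 library left out.

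H2-Q9, H2-T10, H2-T22, H2-T24 and H2-T-ps were not called, with log2 fold changes from -0.42 for H2-T24 to -0.23 for H2-T-ps. Without vehicle replicate 2, edgeR called H2-T22 (-0.53, adjusted p = 0.0187) and H2-T-ps (-0.38, adjusted p = 0.0452). Other omissions moved the estimates towards 0, for H2-Q9 to -0.02 without vehicle replicate 1, for H2-T-ps, H2-T24 and H2-T22 to -0.02, -0.15 and -0.22 without vehicle replicate 3, and for H2-T10 to -0.10 without AOA replicate 2. The values of several single H2-Q and H2-T genes are uncertain, since 21.2% of the 75-base windows of H2-Q5, 17.9% of H2-Q6, 18.5% of H2-T22 and 16.0% of H2-T10 occur in another gene. The share was lower for H2-T23 (5.91%) and H2-T24 (0.459%). The sum of all 16 H2 heavy chain rows, which does not recover reads without a unique position, went from 7344 ± 1071 to 4997 ± 389 CPM (SD, n = 3), or -0.53 on the log2 scale, with an adjusted p of 0.0368 by edgeR (standard error 0.19). H2-K1 made up 44.4% ± 0.674 of these counts with vehicle and 46.7% ± 2.91 with AOA, while H2-K2 went from 0.419% ± 0.0447 to 0.125% ± 0.0195.

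**Figure D4:**
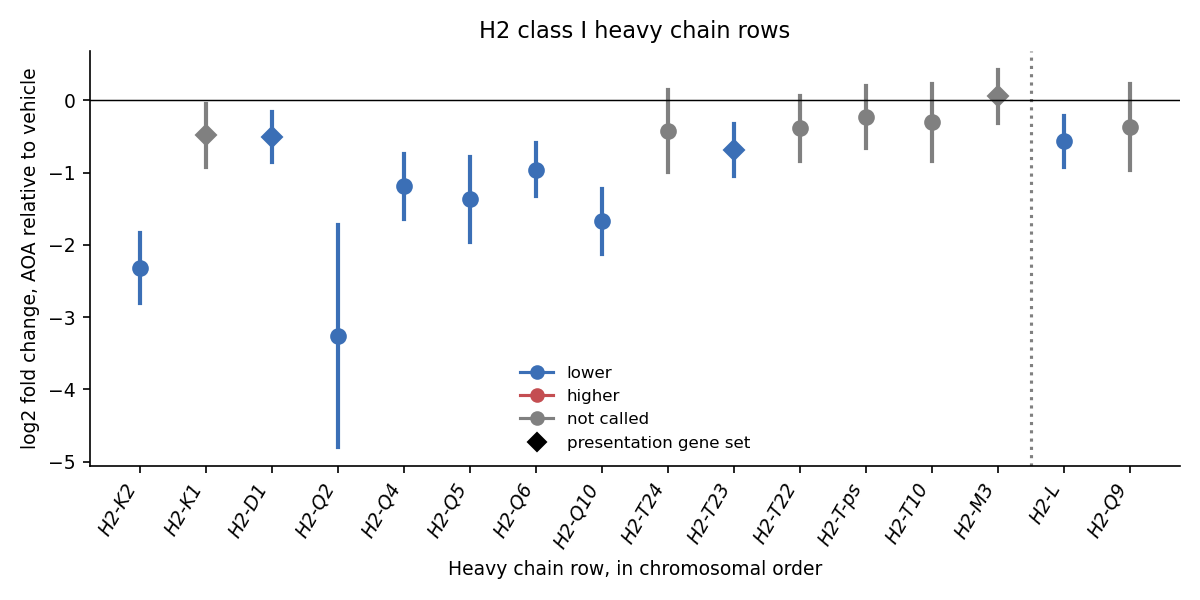
The log2 fold change with its 95% interval for each of the 16 H2 heavy chain rows, coloured by the edgeR call, with diamonds for the 4 heavy chains among the presentation genes. Genes left of the dotted line follow their order on chromosome 17, and H2-L and H2-Q9, right of it, had no model in the GENCODE annotation. H2-Q2, H2-K2 and H2-Q10 lie lowest, and H2-M3 is the only row with an estimate above 0.

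Among genes that supply and load peptides, more rose than fell. Of 22 listed, 20 were tested, and 13 were higher, 1 was lower and 6 were not called, against 26.2% higher and 26.8% lower over all genes. Their median log2 fold change was 0.70. The catalytic subunits of the constitutive proteasome rose, with Psmb7 from 68.8 ± 3.47 to 161 ± 16.7 CPM (SD, n = 3), a log2 fold change of 1.22 (adjusted p = 0.000112 by edgeR), and with Psmb5 and Psmb6 at 1.15 and 1.12. Of the proteasome activators, Psme2 rose from 123 ± 11.9 to 279 ± 60.3 CPM (1.19, adjusted p = 0.000582 by edgeR) and Psme3 by 1.05 on the log2 scale. Psme1, the partner of Psme2, was not called (0.34, adjusted p = 0.0879 by edgeR). Among 13 alternative fits it was called in 1, by DESeq2 (0.35, adjusted p = 0.0486). The glycoprotein chaperones of the loading complex rose too. Calr went from 342 ± 47.6 to 626 ± 20.1 CPM (0.87, adjusted p = 0.00139 by edgeR), Pdia3 had a log2 fold change of 0.76 and Canx 0.72, and Hspa5, a general chaperone of the endoplasmic reticulum, 0.91. Tapbpl, a tapasin relative that edits peptides, had -0.35 and was not called (adjusted p = 0.0731 by edgeR), but was called without vehicle replicate 2 (-0.40, adjusted p = 0.0422), and was -0.22 (adjusted p = 0.329) without vehicle replicate 3.

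The immunoproteasome subunits, which interferon induces and which replace the constitutive ones, had smaller estimates. Psmb10 rose by a log2 fold change of 0.69 (adjusted p = 0.00468 by edgeR). Psmb8 went from 600 ± 20.4 to 815 ± 51.0 CPM (0.44, adjusted p = 0.0263 by edgeR), but lost the call with the donor as a replicate block (adjusted p = 0.0510) or without vehicle replicate 1 or 3 or AOA replicate 2 or 3 (adjusted p from 0.0602 to 0.0735). Psmb9 was not called (0.20, adjusted p = 0.424 by edgeR), and its value ran from 0.05 without AOA replicate 1 to 0.39 without vehicle replicate 3. The log2 ratio of Psmb8, Psmb9 and Psmb10 counts to Psmb5, Psmb6 and Psmb7 counts was 2.45, 2.17 and 2.44 with vehicle and 1.47, 1.65 and 1.75 with AOA. The groups did not overlap, and the ratio itself fell from 5.10 to 3.08 (exact permutation p = 0.1, the smallest possible).

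Tap1 and Psmb9 are neighbours transcribed in opposite directions, but Tap1 was called lower and Psmb9 was not called. The log2 ratio of Tap1 to Psmb9 counts, added after the values had been seen, was 2.05, 1.89 and 2.00 with vehicle and 0.45, 1.24 and 1.14 with AOA. Every AOA library was lower, AOA replicate 1 most of all. The ratio went from 3.95 to 1.92 (exact permutation p = 0.1, 0.117 after Benjamini-Hochberg adjustment over 7 ratios).

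Regulators of the presentation genes were tested as a further list. Of 26 listed genes 25 were tested, and 12 were lower, 2 were higher and 11 were not called, with a median log2 fold change of -0.54. Over all genes 26.8% were lower and 26.2% higher, so the share called in either direction was near the 53.0% of all genes. Ciita, the class II counterpart of Nlrc5, was not tested and stood at 0.499 CPM with vehicle and 0.247 with AOA. Ifngr1, Jak1, Jak2 and Ifnar1, which encode interferon receptor chains and kinases bound to them, had the lowest estimates. Ifngr1, the ligand-binding chain of the interferon gamma receptor, went from 1817 ± 307 to 553 ± 58.2 CPM (SD, n = 3), a log2 fold change of -1.72 (adjusted p = 0.00012 by edgeR). Jak1 fell from 2028 ± 395 to 711 ± 88.1 CPM (-1.51, adjusted p = 0.000324), and Jak2 and the type I interferon receptor chain Ifnar1 had log2 fold changes of -1.26 each. The kinase gene Tyk2 fell as well (-0.95, adjusted p = 0.000569 by edgeR), and the second type I receptor chain Ifnar2 was not called (-0.16, adjusted p = 0.345).

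Irf1, a transcription factor that binds interferon response elements of class I genes, had 443, 258 and 448 CPM with vehicle and 176, 181 and 194 CPM with AOA. All AOA libraries were lower and varied little, and the log2 fold change was -1.06 (adjusted p = 0.00276 by edgeR). Irf2 (-0.71, adjusted p = 0.0151 by edgeR) lost its call without vehicle replicate 1 or 3 or AOA replicate 1 (adjusted p from 0.0578 to 0.0633). Irf8 (-1.18, adjusted p = 0.0191) lost it without AOA replicate 1 (adjusted p = 0.101) or 3 (0.0748), while leaving out vehicle replicate 2 moved it to -0.58 (adjusted p = 0.0390 by edgeR). The second receptor chain Ifngr2 had a log2 fold change of -0.03, and without vehicle replicate 2 it was called lower (-0.47, adjusted p = 0.0253 by edgeR), while without vehicle replicate 3 the value was 0.47 and not called. Ifng itself stood at 5.22 ± 2.89 CPM with vehicle and 3.58 ± 1.21 with AOA and was not called (-0.54, adjusted p = 0.293).

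The RFX subunits that assemble with NLRC5 were not called, with log2 fold changes of -0.37 for Rfx5, 0.04 for Rfxap and -0.17 for Rfxank, and without vehicle replicate 2 that of Rfx5 was -0.17. Of the NF-Y subunits, which bind CCAAT, Nfya (0.58, adjusted p = 0.00527 by edgeR) and Nfyc (0.93, adjusted p = 0.0011) were the 2 listed regulators that rose.

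**Figure D5:**
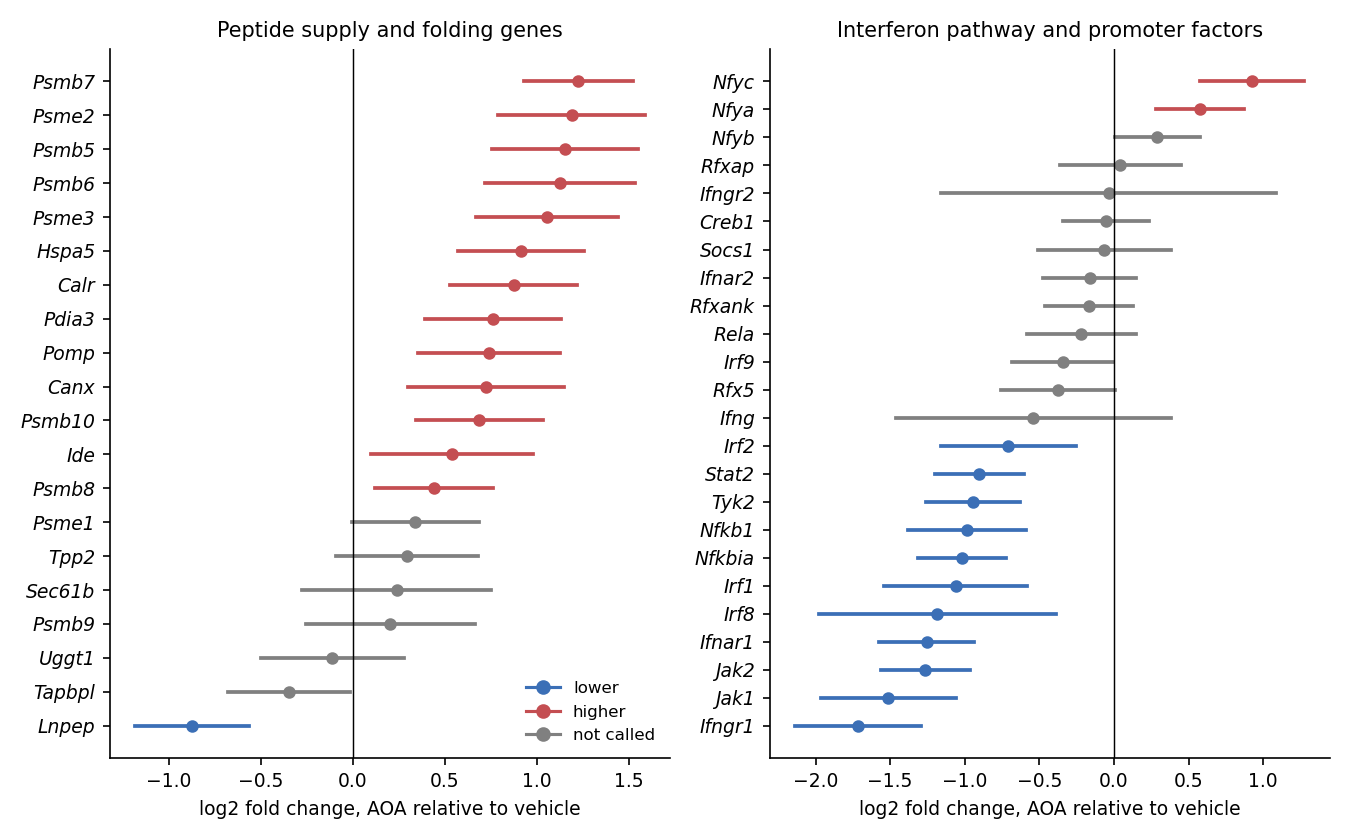
The log2 fold change (horizontal axes, AOA relative to vehicle) with its 95% interval for the 20 tested peptide supply and folding genes (left) and 24 of the tested regulators (right), coloured by the edgeR call. On the left 13 genes are called higher and 1 lower (Lnpep), and on the right 11 are called lower and 2 higher (Nfya and Nfyc).

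Markers of other cells were compared because class I and interferon pathway genes are also expressed outside CD8+ T cells. The 6 CD8 T cell markers had rows and summed to between 3304 and 4213 CPM with vehicle and between 4251 and 4984 with AOA. Cd8a (log2 fold change 1.03) and Cd8b1 (0.64) were called higher, Cd2 (-0.61) was called lower, and Cd3d (-0.13), Cd3e (-0.27) and Cd3g (-0.31) were not called. The 4 CD4 T cell markers summed to between 158 and 210 CPM with vehicle and between 33.0 and 54.3 with AOA. Of these, 3 were called lower (Cd4, Zbtb7b and Cd40lg), while Foxp3 had an estimate above 0 and was not called (0.36, adjusted p = 0.127 by edgeR). Of 9 myeloid and dendritic markers 5 had a row, with sums of 68.1 to 103 CPM with vehicle and 3.13 to 6.24 with AOA. Itgam, Itgax and Xcr1 were all called lower, with log2 fold changes of -5.25, -4.70 and -2.17. Cd14 was at most 1.03 CPM with vehicle, lower in every AOA library and at 0 in 2 of them, and Lyz2 was at most 1.16 CPM in any library and at 0 in 2 vehicle libraries. Of 6 B cell markers 5 had a row and summed to 13.9 to 18.4 CPM with vehicle and 23.1 to 30.9 with AOA, most of it Cd79b. Of 3 NK markers 2 had a row and summed to 20.1 to 114 CPM with vehicle, highest in replicate 2, and 3.53 to 11.6 with AOA. Most of this was Klrb1c, which was called lower (-3.02, adjusted p = 0.0031 by edgeR). Ncr1 was not tested. It was at 0 in vehicle replicates 1 and 3, at 2.35 CPM in vehicle replicate 2, and above 0 in every AOA library. None of the 4 erythroid markers had a row. Whether these markers came from other cells, and the part of any such cells in the results above, was not tested.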

How the data were processed

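RNA of 6 cultures (3 vehicle, 3 AOA) was sequenced from stranded TruSeq mRNA libraries as paired-end reads. Reads had been mapped with STAR by the authors, who counted those with a unique position and deposited raw counts per gene, with an Entrez number, symbol and length. The submitters' processing notes also name featureCounts, DESeq2 and mm10, the build called GRCm38 here. Versions of STAR, featureCounts and DESeq2, the annotation and the strand setting of counting: not given in the sources used here.

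For each gene kept by filterByExpr (minimum count 10), groups were compared in edgeR 4.0.16 (R 4.3.3) after TMM normalisation, with a robust quasi-likelihood fit and Benjamini-Hochberg adjustment at 0.05. Ratios were formed within libraries and tested by exact permutation (20 assignments, two-sided). Alternatives were DESeq2 1.42.0, limma 3.58.1 (voom), other scalings and filters, the mouse as a replicate block, and each library left out. The steps were tested on simulated data. Positions came from GENCODE vM21 and promoters from RefSeq, both of GRCm38.

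The pairing comes from the donor labels. Across genes, departures from the group mean correlated between the 2 cultures of mice 1, 2 and 3 with r of 0.0868, 0.189 and 0.194. Named genes are the 10 members, up to 5 called genes per direction and list with at least 10 CPM in the higher group, a fixed set of proteasome, chaperone, interferon and RFX genes, and the H2-Q and H2-T genes. The members and lists were chosen with earlier results of these data known. Values outside this rule (H2-L, Hspa5, Tyk2, Ifnar2 and the markers among them) were named after they had been seen. The values of 1 listed regulator are not reported here, although the counts of its list include it.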

Additional observations from a re-analysis of the deposited data

How the results depend on the processing

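Among values of single genes under alternative fits, 627 kept their direction and their side of the threshold, 16 lost the call, 9 gained it and 11 changed sign, none of them called. The 11 were values of Ifngr2, H2-M3, Ifng and Rfxap. Ifngr2 (-0.03) was 0.0004 with total counts only, 0.0024 with no low-count filter, 0.35 with limma voom and 0.26 with the replicate block, and ran from -0.47 to 0.47 with 1 library left out. In the same way H2-M3 ran from -0.0781 to 0.17, Ifng from -0.85 to 0.0516 and Rfxap from -0.0822 to 0.17. A further requirement of 1 log2 unit or more left 0 presentation genes higher and 0 lower, 5 peptide supply genes higher and 0 lower, and 0 regulators higher and 7 lower. Tapbpl raised the number of peptide supply genes called lower to 2 with at least 10 CPM in 3 libraries (adjusted p = 0.0476 by edgeR). Under the same filter H2-K1 was called (-0.51, adjusted p = 0.0453).

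With 1 library left out at a time, 1 presentation gene was higher throughout and 3 to 5 were lower, and the peptide supply genes lower were 1 to 2, with 2 without vehicle replicate 2. The change in the log2 ratio of H2-K1 to H2-D1 ran from -0.0556 (without vehicle replicate 2, exact permutation p = 0.6) to 0.14, and that of heavy chains to B2m from -0.75 to -0.54. The mouse as a replicate block gave 6292 calls over all genes, against 6233, and among the presentation genes it changed no call (H2-D1 -0.52, adjusted p = 0.0309, and Tap1 -0.83, adjusted p = 0.00540 by edgeR). Psmb8 lost its call under the block (0.44, adjusted p = 0.0510). The cause of these shifts was not tested.

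With 3 libraries per group an exact permutation test cannot give a p below 0.1, so the ratios cannot pass 0.05. Reads shared between heavy chain genes limit their separate values, and H2-Q2 rests on few counts.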

Other observations

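Class I-like molecules outside the H2 complex were part of the list of other heavy chains. Mr1, which presents vitamin B metabolites to MAIT cells, fell from 34.2 ± 6.79 to 14.8 ± 1.40 CPM (SD, n = 3), a log2 fold change of -1.21 (adjusted p = 0.000654 by edgeR). Cd1d1, which presents lipids to NKT cells, went from 11.8 ± 0.944 to 7.28 ± 1.22 CPM (-0.69, adjusted p = 0.0165 by edgeR), and the neonatal Fc receptor chain Fcgrt was not called (-0.33, adjusted p = 0.385). Cd1d1 and Fcgrt were named after their values had been seen.

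Likeness to Nlrc5 was measured as the root mean square difference of gene-centred log2 CPM over the 6 libraries, among 8761 genes. The nearest were Ercc4 (0.0303), Pan3 (0.0344) and Spop (0.0373), whose log2 fold changes were -0.74, -0.75 and -0.80. Of the other presentation genes H2-D1 was nearest (0.121, rank 211), followed by H2-T23 (0.149, rank 406), H2-K1 (0.182, rank 748) and Tap1 (0.234, rank 1350), and Erap1 was farthest (0.719).

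NF-κB genes were among the listed regulators. Nfkb1 fell from 577 ± 30.0 to 292 ± 56.7 CPM (SD, n = 3), a log2 fold change of -0.98 (adjusted p = 0.00147 by edgeR), and the inhibitor gene Nfkbia had -1.02 (adjusted p = 0.000292). Rela was not called (-0.22, adjusted p = 0.280). These 3 genes were named after their values had been seen.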
